A study of Bos taurus with 9 samples.

Results

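Among the peaks of the repressive histone mark H3K9me3 that appeared in butyrate-treated bovine kidney cells, 4674 lay on a peak of the active mark H3K27ac. These coincident regions were chosen by position alone, as H3K9me3 peaks of the butyrate library that shared at least 1 bp with a butyrate H3K27ac peak and met no H3K9me3 peak of the control library. They came from 89478 nuclear H3K9me3 peaks after butyrate, of which 85351 met no control H3K9me3 peak and are called gained, and from 673837 nuclear peaks in all 8 lists. The coincident regions made up 5.48% of the gained H3K9me3 peaks, a share that the choice itself fixes. The butyrate H3K27ac peaks that they met, called partner peaks, numbered 4701, or 2.51% of that list.

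The cells were MDBK, an established epithelial line from bovine kidney that the labels give as Hostein in breed. Control cells were untreated, and the other cells received 5 mM butyrate for 24 h. Chromatin immunoprecipitation and sequencing (ChIP-seq) used rabbit polyclonal antibodies to H3K9ac and H3K27ac and, as labeled, mouse monoclonal antibodies to RNA polymerase II (Pol II) and H3K9me3. The 4 antibodies in 2 conditions gave 8 libraries of this line, with 1 per group, so no difference had a replicate check and no test between conditions was possible. Control libraries ran on lane 4 and butyrate libraries on lane 5, and lane and treatment cannot be told apart. The input ran on lane 5 too, with the butyrate but not the control libraries, and the effect of this was not tested. The intervals given below are 95% intervals that cover counting error only, and peaks near each other are not independent.

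H3K9me3 is the methyl mark of heterochromatin. It is bound by HP1 proteins and silences repeats, and clusters of zinc finger genes often carry it. H3K27ac is placed at active promoters and enhancers by the acetyltransferases p300 and CBP, and H3K9ac marks active promoters. Lysine 9 of a histone H3 tail can carry an acetyl group or methyl groups but not both at once, whereas lysine 9 methylation and lysine 27 acetylation involve different residues and can occur on 1 tail. Butyrate, a fatty acid that microbes of the rumen release, inhibits the histone deacetylases that remove acetyl groups. Peaks that overlap in separate libraries share a position in the genome. Such lists cannot tell whether both marks sat on the same nucleosome, in the same cell or on the same allele.

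The lists hold only chromosome, start and end, without peak height. They covered very different amounts of the genome, which bears on every overlap. Butyrate H3K27ac covered 3.05% of the 2659.92 Mb span, control H3K27ac 1.43%, butyrate H3K9ac 1.39%, control H3K9ac 1.09% and butyrate H3K9me3 0.908%. Control Pol II covered 0.522%, butyrate Pol II 0.319% and control H3K9me3 0.235%.

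The first question was where gained H3K9me3 stood relative to acetylation, whichever peaks the rule kept. Of 22.7 Mb in gained H3K9me3 peaks, 942 kb lay inside butyrate H3K27ac, or 4.15%, compared with 3.05% of the whole span. The excess sat at the centers of the peaks. A butyrate H3K27ac peak covered 4.35% of the centers of gained H3K9me3 peaks, 2.03% of positions 1 kb away, 2.97% of positions 5 kb away and 3.09% of positions 20 kb away. Cover was thus low around the gained H3K9me3 peaks and rose within a narrow stretch at the center. The same shape was found in lists the rule did not use. Control H3K27ac covered 2.22% of the centers, 0.971% at 1 kb and 1.69% at 20 kb, and butyrate H3K9ac covered 3.53%, 1.22% and 1.58%. Pol II had a narrow rise with little or no dip. Control Pol II covered 3.53% of the centers, 0.884% at 1 kb and 0.704% at 20 kb, and butyrate Pol II 1.29%, 0.312% and 0.359%. A rise at the center was thus present for all 3 other antibodies and in both conditions. All libraries were called against 1 shared input, and its part in these narrow rises was not tested.

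**Figure D1:**
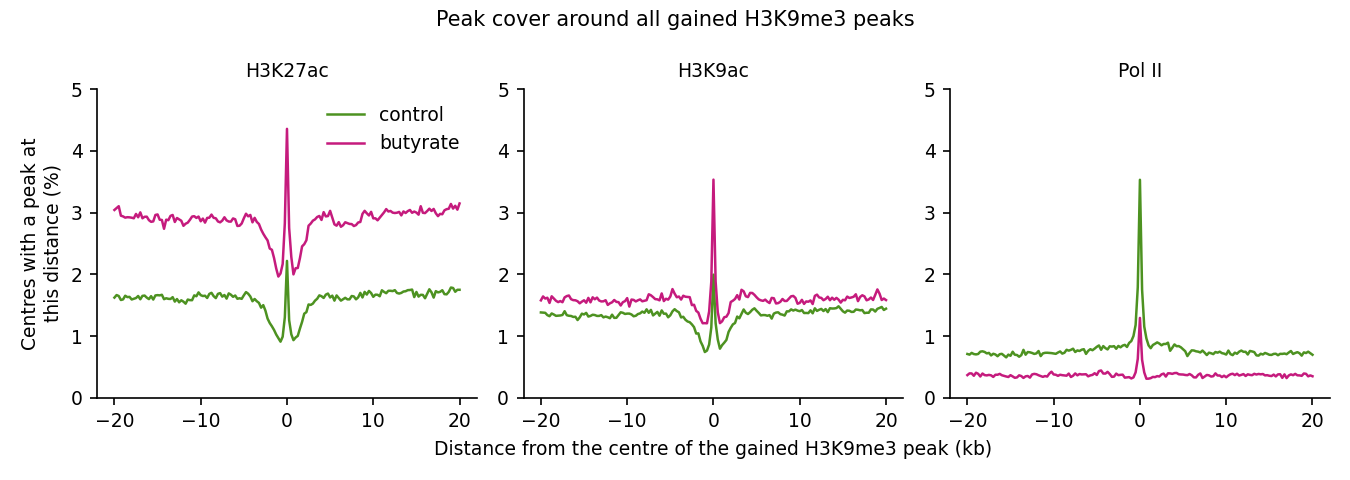
The plots show, around all gained H3K9me3 peaks, the percentage of peak centers that had a peak of the other antibodies at a given distance (kb), in control and after butyrate. Cover by H3K27ac dips to 2.03% at 1 kb and reaches 4.35% at the center after butyrate, while Pol II rises at the center with little or no dip.

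The coincident regions were short, as gained H3K9me3 peaks were in general. Their median length was 232 bp (interval of the median, 229 to 234; range, 199 to 1447 bp), against 231 bp (230 to 231) for the 80677 gained peaks off H3K27ac. The shortest length that occurs in the lists, 199 bp, was found in 31.4% of coincident regions (30.1 to 32.8) and 29.97% of the other gained peaks (29.7 to 30.3). Longer peaks meet others more often by their size alone, and 4.99% of coincident regions (4.40 to 5.65) were at least 500 bp long, against 3.26% (3.14 to 3.39). The share of gained H3K9me3 peaks that were coincident was 5.72% at 199 bp, 5.08% from 200 to under 300 bp, 5.59% from 300 to under 500 bp and 7.70% from 500 to under 1000 bp. It was 18.9% (12.7 to 27.2) among the 111 gained peaks of 1000 bp or more, of which 21 were coincident. The share was thus higher from 500 bp upward, while the median lengths were nearly equal.

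Partner H3K27ac peaks were longer than the regions themselves, with a median of 386 bp (376 to 398), and longer than the H3K27ac peaks that met no butyrate H3K9me3 peak (324 bp, 323 to 325). A region was met by 2.58% of H3K27ac peaks at 199 bp (2.33 to 2.87), 1.87% from 200 to under 300 bp (1.77 to 1.97) and 5.497% at 1000 bp or more (5.07 to 5.96). Partners were chosen by meeting a region, which longer H3K27ac peaks do more often by size alone, so their greater length depends on the choice. Most regions shared more than their edge with H3K27ac, though most also reached past an end of it. The median number of bases shared was 199, H3K27ac covered at least 50% of the length in 79.4% of regions (78.2 to 80.5), and it covered the whole region in 43.8% (42.3 to 45.2). Counted over the 4792 pairs of a region and a partner, the H3K9me3 peak lay inside the H3K27ac peak in 42.7%, the H3K27ac peak lay inside the H3K9me3 peak in 7.45%, and the edges were staggered in 49.9%. A total of 4556 regions met 1 H3K27ac peak and 118 met 2. Among partner peaks, 4615 met 1 region, 82 met 2, 3 met 3 and 1 met 4.

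Inside the partners of at least 1 kb, regions showed little preference for the middle. Of 564 region centers in such peaks, 53.0% (48.9 to 57.1) were nearer to the middle of the H3K27ac peak than to its edge. The value was 55.9% (55.04 to 56.7) for butyrate H3K9ac peaks and 58.2% (56.8 to 59.6) for butyrate Pol II peaks in the H3K27ac peaks of this length. The interval of the regions overlaps the intervals of both other lists.

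Peaks on either side of the 1 bp limit were compared as a description. Just inside it, 9 regions shared 1 bp and 264 shared 1 to 50 bp. Just outside it, 5 gained H3K9me3 peaks touched an H3K27ac peak with 0 bp between, and 240 lay within 50 bp. Butyrate H3K9ac met 30.3% of the 264 and 27.1% of the 240, and control H3K27ac met 14.02% and 19.2%.

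The state of these positions in untreated cells was read from the control lists, which the rule did not use for acetylation or Pol II. Control H3K27ac met 1407 of the 4674 coincident regions, or 30.1% (28.8 to 31.4), against 3.17% of all gained H3K9me3 peaks. Control H3K9ac met 1354, or 29.0% (27.7 to 30.3), against 2.68%. Either acetyl mark was present in control at 40.8% of regions (39.4 to 42.2), so that 59.2% (57.8 to 60.6) had no acetyl peak and, by the choice of regions, no H3K9me3 peak in the control lists. Coincident regions lay near control acetylation, as H3K27ac peaks in general did, with a median distance of 1.08 kb to control H3K27ac against 0.999 kb for H3K27ac peaks without H3K9me3. The 3267 regions that met no control H3K27ac peak had a median distance of 2.61 kb to the nearest one, and 80.5% of them were within 10 kb. Gained H3K9me3 peaks off H3K27ac had a median distance of 37.2 kb to control H3K27ac. Coincident regions also lay nearer to control H3K9me3, with a median distance of 16.2 kb against 30.8 kb for the gained peaks off H3K27ac. Among the regions without an acetyl peak in control, 854 met butyrate H3K9ac, or 18.3% (17.2 to 19.4) of all coincident regions.

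After butyrate, H3K9ac met 2038 coincident regions, or 43.6% (42.2 to 45.0), compared with 4.88% of all gained H3K9me3 peaks and 2.64% (2.53 to 2.75) of those off H3K27ac. H3K9ac and H3K9me3 occupy the same residue, so these 2038 positions carried peaks for states that exclude each other on a single tail. Of the bases shared by gained H3K9me3 and H3K27ac, 35.9% were also inside a butyrate H3K9ac peak. Regions with butyrate H3K9ac met control H3K27ac in 44.0% (41.8 to 46.1) and butyrate Pol II in 19.4% (17.7 to 21.2). Regions without it met them in 19.4% (17.9 to 20.9) and 7.28% (6.35 to 8.34). Both kinds had nearly the same median length, 231 and 233 bp.

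Pol II met fewer coincident regions than acetylation did, but its lists were also smaller. They covered 0.522% of the span in control and 0.319% after butyrate, against 1.09% for control H3K9ac, the smallest acetyl list. Control Pol II met 592 of them, or 12.7% (11.7 to 13.7), against 5.63% of all gained H3K9me3 peaks. Butyrate Pol II met 587, or 12.6% (11.6 to 13.5), against 1.96%. Pol II in both conditions met 121 regions, or 2.59% (2.17 to 3.08). Butyrate H3K9ac and butyrate Pol II together met 395 regions, or 8.45% (7.69 to 9.28). Neither count was made over all gained H3K9me3 or all H3K27ac peaks, so neither can be called particular to the regions.

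Combinations of the 5 lists were uneven. These and the joint counts above were made for coincident regions only. Whether such shares are usual for H3K27ac or gained H3K9me3 peaks was not tested. The largest group, 1645 regions or 35.2% (33.8 to 36.6), met none of the 5 and therefore carried only the peaks by which they were chosen. The next, 650 regions or 13.9% (12.9 to 14.9), met butyrate H3K9ac alone, and 355 (7.60%) met control H3K27ac with H3K9ac in both conditions. Exactly 1 of the 5 lists met 27.9% of regions, 2 lists met 18.2%, 3 met 12.4% and 4 met 5.26%. All 5 met 51 regions (1.09%), whose partners had a median length of 1034 bp and of which 17 were on chromosome 5.

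A position on H3K27ac brings H3K9ac and Pol II with it, so H3K27ac peaks are the closer comparison. Of all butyrate H3K27ac peaks, 34.9% met butyrate H3K9ac, 32.3% control H3K27ac, 27.4% control H3K9ac, 9.41% butyrate Pol II and 5.67% control Pol II. Among partner peaks, butyrate H3K9ac met 48.8% (47.4 to 50.3), which was 14.4 percentage points (12.9 to 15.8) above the 34.5% of H3K27ac peaks without H3K9me3. This direction was not kept for the longest regions, since among partners of regions of at least 500 bp butyrate H3K9ac met 30.6% (25.3 to 36.5), below the 34.5% but with an interval that includes it. Control Pol II met 15.2% of partners, 9.89 points (8.88 to 10.9) above the 5.34% of the others, and butyrate Pol II met 17.3%, 8.16 points (7.10 to 9.28) above 9.15%. The difference was smaller for control H3K9ac, 5.46 points (4.12 to 6.83), and for control H3K27ac, 2.45 points (1.09 to 3.84). These shares are not matched for length.

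**Figure D2:**
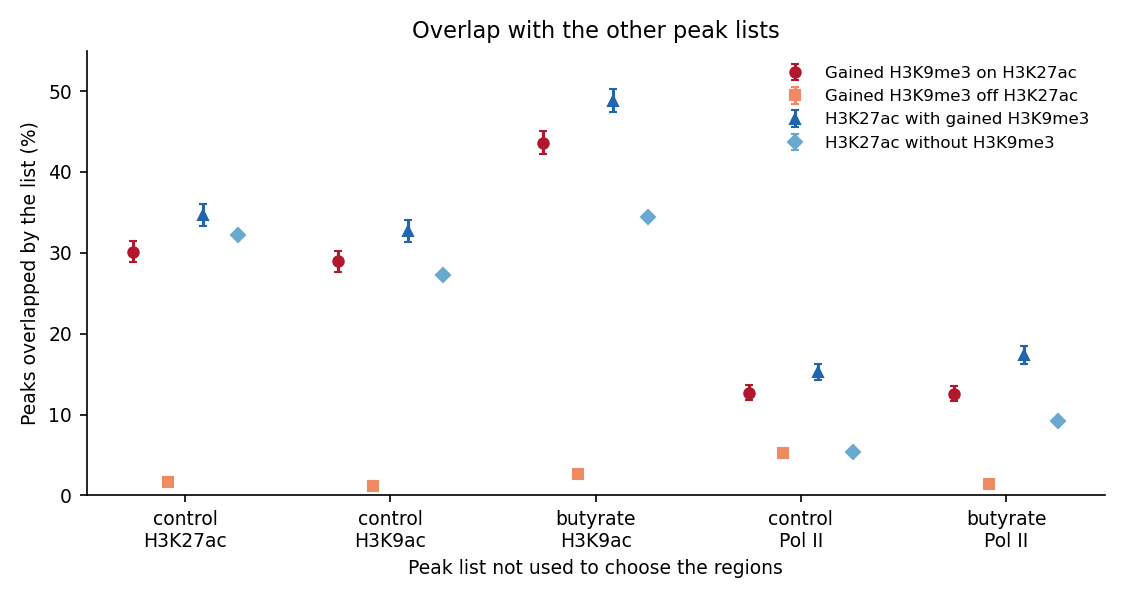
Points give the percentage of peaks that met each of the 5 lists not used to choose the regions, with 95% Wilson intervals, for gained H3K9me3 on and off H3K27ac and for H3K27ac peaks with gained H3K9me3 and without any. Regions on H3K27ac (43.6% with butyrate H3K9ac) are far above gained H3K9me3 off it (2.64%), and their partners (48.8%) are above H3K27ac peaks without H3K9me3 (34.5%).

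Because partners were longer, the comparison was repeated within classes of H3K27ac length. In peaks of 300 to under 500 bp, butyrate H3K9ac met 41.0% of partners and 32.3% of peaks without H3K9me3, a difference of 8.62 points (5.996 to 11.3). In peaks of 500 to under 1000 bp it met 69.4% and 57.7%, a difference of 11.7 points (8.995 to 14.3). Control H3K27ac went the other way. It met 24.9% of partners of 300 to under 500 bp and 30.5% of the others, a difference of -5.58 points (-7.85 to -3.17), and in peaks of 1000 bp or more the values were nearly equal (80.3% and 80.3%; interval of the difference, -3.64 to 3.22 points). In the shortest class the difference was 2.27 points with an interval that includes 0 (-1.21 to 6.51), so no class had control H3K27ac at more partners beyond counting error. Control H3K9ac differed by -1.96 to 2.64 points over the 5 classes, and each interval includes 0, so its pooled difference was not found at matched length. Control Pol II met more partners than other H3K27ac peaks in every class, by 6.51 points (5.02 to 8.25) from 200 to under 300 bp and by 17.5 points (13.6 to 21.6) at 1000 bp or more.

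**Figure D3:**
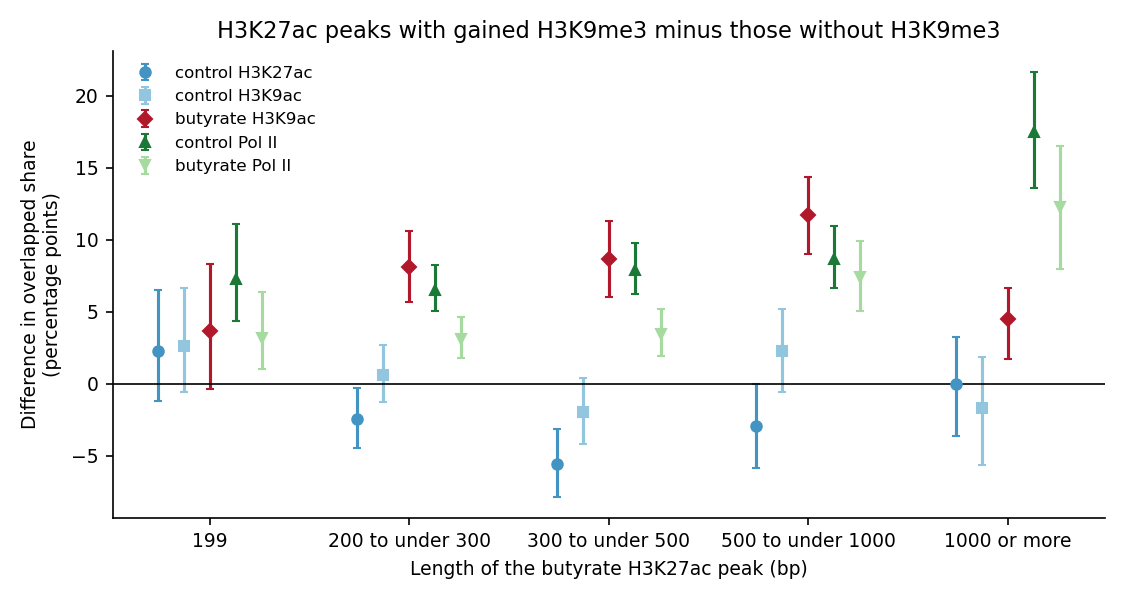
The plot shows, by length class of the butyrate H3K27ac peak (bp), the share of peaks that met each list among partners of gained H3K9me3 minus the share among H3K27ac peaks without H3K9me3 (percentage points, with 95% intervals). Values for butyrate H3K9ac and both Pol II lists are above 0 in each class, by up to 17.5 points (the interval for butyrate H3K9ac in the shortest class reaches -0.387), while control H3K27ac lies below 0 in the 3 middle classes.

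Cover was also read around the centers, which are those of the H3K9me3 peak for coincident regions and of the H3K27ac peak for the peaks without H3K9me3, so the positions are not fully matched. At the centers of coincident regions, control H3K27ac was present in 22.8%, control H3K9ac in 22.7%, butyrate H3K9ac in 33.9%, control Pol II in 7.98% and butyrate Pol II in 8.75%. At the centers of H3K27ac peaks without H3K9me3 these values were 24.1%, 20.4%, 23.6%, 2.75% and 4.86%. At a distance of 10 kb, butyrate H3K27ac was at 14.7% of positions around both. At 10 kb the other acetyl lists were higher around coincident regions, with butyrate H3K9ac at 6.41% there and 5.58% around the others. Control H3K27ac was at 6.80% and 5.92%, and control H3K9ac at 5.85% and 4.52%. At 1 kb both control acetyl lists were lower around coincident regions. Control H3K27ac was at 9.49% there and 11.7% around the others, and control H3K9ac at 7.91% and 8.68%. Butyrate H3K9ac was still higher at 1 kb, at 9.90% and 8.96%. Gained H3K9me3 peaks off H3K27ac had butyrate H3K27ac at 2.20% of positions 10 kb away. In H3K9me3 itself, coincident regions had further butyrate H3K9me3 peaks at 3.53% of positions 1 kb away and 1.65% at 10 kb, close to the 3.61% and 1.71% around gained peaks off H3K27ac. Control H3K9me3 was at 0.856% and 0.460% of these positions around coincident regions and at 0.576% and 0.353% around gained peaks off H3K27ac. The regions thus had about as much butyrate H3K9me3 at these distances as other gained peaks, and more control H3K9me3.

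**Figure D4:**
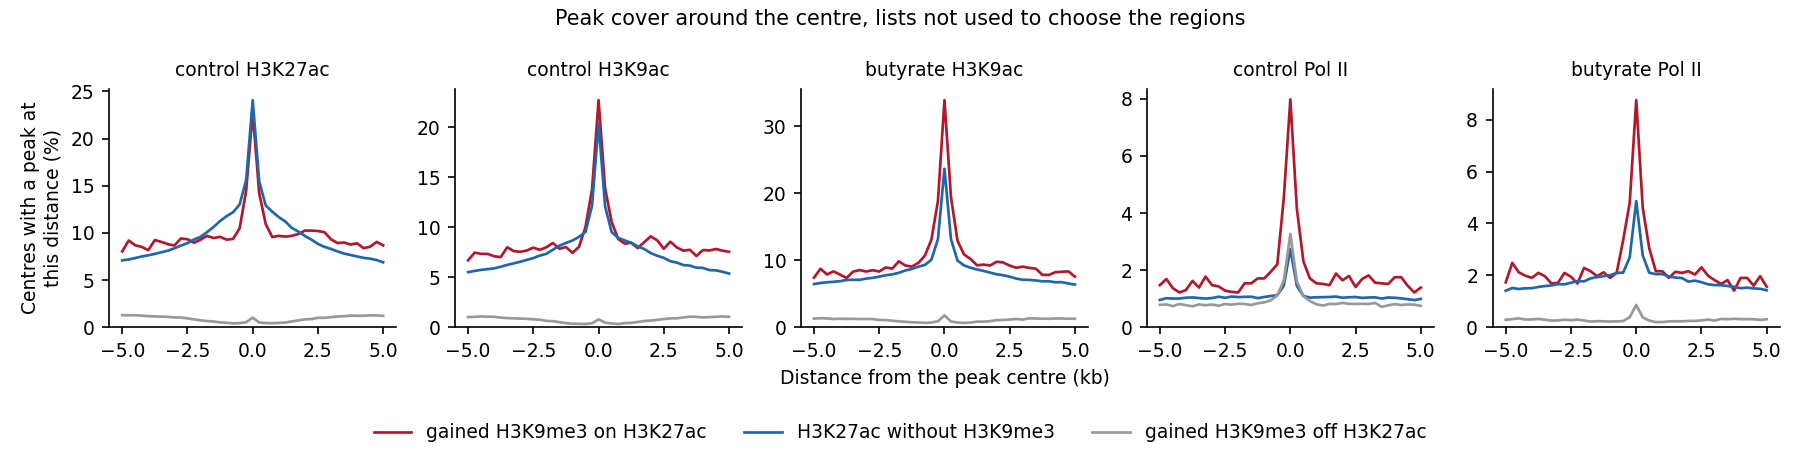
Lines give the percentage of peak centers with a peak of the named list at each distance (kb), around gained H3K9me3 on H3K27ac, gained H3K9me3 off H3K27ac and H3K27ac peaks without H3K9me3. Each panel has its own vertical scale from 0, and for butyrate H3K9ac the center value is 33.9% in coincident regions and 23.6% in H3K27ac peaks without H3K9me3.

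The coincident regions were spread widely. Windows are described by their butyrate H3K27ac cover, the list that a region had to meet, so a rise of the coincident share with cover is largely fixed by the choice. At least 1 was found in 1468 of 2677 windows of 1 Mb. In windows with under 0.5% of bases in butyrate H3K27ac, 0.366% of gained H3K9me3 peaks (0.285 to 0.469) were coincident, and in windows with 8% or more, 18.1% (17.2 to 18.9). Gained H3K9me3 peaks were not rarer in the acetylated windows, with 23.3 per window in the first class and 35.2 in the last. In the class from 4% to under 8%, where cover averaged 5.64%, 6.63% of gained H3K9me3 bases lay in H3K27ac. In the class of 8% or more, cover averaged 10.7% and the value was 13.4%.

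By chromosome, the percentage of gained H3K9me3 bases inside H3K27ac was above the percentage of the chromosome so covered on 28 of 30 chromosomes. The exceptions were chromosome 18, with 1.81% of gained bases against 2.46% of the chromosome, and chromosome 28, with 3.24% against 3.29%. Chromosome 15 had the highest ratio, 1.69, with 6.20% against 3.67%. The share of gained H3K9me3 peaks that were coincident ran from 0.939% on the X chromosome (0.538 to 1.63), where there were 12 regions, to 8.78% on chromosome 5 (8.15 to 9.46). Butyrate H3K27ac, the list a region had to meet, covered 0.606% of the X chromosome and 4.34% of chromosome 5, which bears on this range. The ratios there were 1.23 and 1.59. Chromosome 18, which held 3.77% of gained H3K9me3 peaks, held 85 regions or 1.82% of them.

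**Figure D5:**
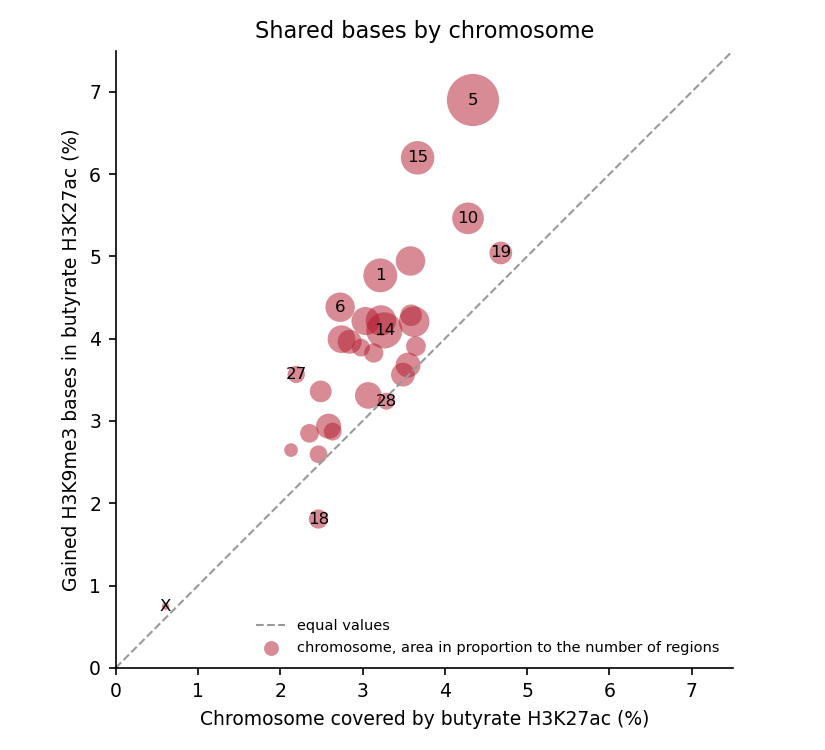
Each disk is a nuclear chromosome, placed by the percentage of it covered by butyrate H3K27ac (horizontal) and the percentage of its gained H3K9me3 bases inside butyrate H3K27ac (vertical), with an area in proportion to its number of coincident regions. Most lie above the dashed line of equal values, chromosome 5 (6.90% against 4.34%) and chromosome 15 stand highest, and chromosome 18 lies below.

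Chromosomes 5 and 14 held 4199 and 2667 of the 25623 control H3K9me3 peaks, the most of any chromosome. They held 19.9% of coincident regions, against 14.8% of gained H3K9me3 peaks and 9.13% of butyrate H3K27ac peaks. The excess over gained peaks lay on chromosome 5, with 13.4% of regions and 8.36% of gained peaks. Chromosome 14 held 6.44% of each, and its coincident share was 5.47%, against 5.48% for all gained peaks. The overlap of regions with other lists was higher on chromosomes 5 and 14 than elsewhere. On these chromosomes butyrate H3K9ac met 61.7% of regions (58.6 to 64.8) and control Pol II 26.1% (23.4 to 29.0), and elsewhere 39.1% (37.6 to 40.7) and 9.34% (8.45 to 10.3). For butyrate H3K9ac, partners were above H3K27ac peaks without H3K9me3 in both parts of the genome, in shares not matched for length. On chromosomes 5 and 14 it met 65.7% of partners (62.5 to 68.7) and 35.7% of the others (35.0 to 36.5). Elsewhere it met 44.8% (43.2 to 46.4) and 34.3% (34.1 to 34.6). Control H3K27ac, also in shares not matched for length, met 42.5% of partners (39.3 to 45.7) and 36.2% of the others (35.5 to 37.0) on chromosomes 5 and 14. Elsewhere its intervals overlapped, at 32.8% (31.4 to 34.3) and 31.9% (31.7 to 32.1). Without chromosomes 5, 14 and 18, the difference in butyrate H3K9ac in peaks of 500 to under 1000 bp was 8.40 points (5.28 to 11.4). It was 4.18 points (1.69 to 6.87) from 200 to under 300 bp and 4.51 points (1.63 to 7.48) from 300 to under 500 bp. The interval includes 0 at 199 bp (0.353 points, -3.83 to 5.48) and at 1000 bp or more (1.43 points, -2.13 to 4.26). Control H3K27ac was then lower at partners from 200 to under 300 bp (-3.32 points, -5.45 to -0.937). It was also lower from 300 to under 500 bp (-7.15 points, -9.61 to -4.49) and from 500 to under 1000 bp (-3.61 points, -6.83 to -0.374). Its intervals in the shortest and longest classes include 0. Control H3K9ac was lower at partners from 300 to under 500 bp (-3.79 points, -6.16 to -1.22). The same held at 1000 bp or more (-5.34 points, -10.1 to -0.958). The Pol II differences were smaller without these chromosomes but stayed above 0. Control Pol II differed by 4.14 points (2.74 to 5.86) from 200 to under 300 bp and 11.5 points (7.31 to 16.2) at 1000 bp or more. Butyrate Pol II differed by 1.57 points (0.362 to 3.11) and 6.75 points (1.81 to 11.8) in the same classes.

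Most regions stood alone. With regions less than 10 kb apart joined into runs, 3345 were single, 441 runs held 2 regions, 89 held 3, 29 held 4 and 11 held 5 or more. The longest run had 8 regions in 17.95 kb of chromosome 15, from 31531369 to 31549320, with lengths from 230 to 1317 bp. The same stretch held 16 butyrate H3K27ac peaks against 2 in control, and 13 butyrate H3K9me3 peaks against 2. A run is made of regions chosen by these butyrate peaks and by the absence of control H3K9me3, so the choice favors such contrasts. The whole lists also differed, with 187465 butyrate and 94603 control H3K27ac peaks, and 89478 and 25623 H3K9me3 peaks. In lists the rule did not use, the stretch held 8 butyrate H3K9ac peaks against 4, and 2 Pol II peaks in each condition. A run of 7 regions on chromosome 14, from 47469423 to 47484578, differed in its control peaks, with 8 control H3K27ac peaks, 11 control H3K9ac peaks and 5 control Pol II peaks.

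Single places were picked by length, shared bases or number of regions. Positions count from 1 and are those of the lists, made on the UMD3.1.1 build according to the methods. Genes and sequences at them were not analysed here. Among 1 Mb windows, chromosome 15 from 43000001 to 44000000 held the most coincident regions, 30 of 72 gained H3K9me3 peaks, beside 421 H3K27ac peaks that covered 20.9% of it. Chromosome 5 from 38000001 to 39000000 followed with 28 of 95, and H3K27ac covered 13.3%. The windows next in order were chromosome 14 from 76000001 to 77000000 with 21 of 101, chromosome 20 from 21000001 to 22000000 with 21 of 84, and chromosome 5 from 95000001 to 96000000 with 19 of 86. All 5 windows had H3K27ac cover of at least 6.79%, above that of the genome as a whole, which the choice of regions by H3K27ac largely fixes.

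The 5 longest regions were broad H3K9me3 peaks with a small acetylated part. The longest, on chromosome 16 from 34680978 to 34682424 (1447 bp), held an H3K27ac peak of 199 bp and met butyrate H3K9ac alone of the 5 lists. The next, on chromosome 5 from 78647530 to 78648974 (1445 bp), held an H3K27ac peak of 568 bp and met control Pol II alone. A region of 1405 bp on chromosome 28, from 17933876 to 17935280, shared 91 bp with its partner and met both acetyl marks in control but neither H3K9ac nor Pol II after butyrate. A region of 1390 bp on chromosome 15 from 43040400 to 43041789, in the window richest in regions, shared 307 bp and met control Pol II alone. The last, of 1377 bp on chromosome 14 from 16497411 to 16498787, met 2 H3K27ac peaks, and also control H3K27ac, control H3K9ac and control Pol II. None of the 5 met Pol II after butyrate.

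The regions that shared the most bases with 1 H3K27ac peak carried more of the other marks. On chromosome 10 from 30090542 to 30091487, the whole H3K9me3 peak of 946 bp lay in an H3K27ac peak of 1039 bp, and the region met every other list except control Pol II. On chromosome 24 from 47068967 to 47069896, all 930 bp lay in a partner of 1173 bp, and all 5 lists met the region. It was also the longest of the 51 regions with all 5. On chromosome 1 from 6153556 to 6154355, all 800 bp were shared and butyrate H3K9ac was the only further list, so that no control list had a peak there. On chromosome 14 from 68832040 to 68832748, all 709 bp were shared and all 5 lists were present. On chromosome 5 from 1326515 to 1327243, 702 of 729 bp were shared, with H3K9ac in both conditions and control H3K27ac but no Pol II.

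The remaining regions named for meeting all 5 lists were 766 bp on chromosome 5 from 65621754 to 65622519, 530 bp on the X chromosome from 118742966 to 118743495, and 525 bp on chromosome 1 from 149645723 to 149646247. The last had a partner of 1797 bp and the one on the X chromosome a partner of 1507 bp, and both H3K9me3 peaks lay wholly inside them. Each of these places thus had acetylation and Pol II in control and after butyrate, and an H3K9me3 peak after butyrate only.

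H3K9me3 peaks that were already present in control coincided with H3K27ac more often than gained ones did. Butyrate H3K27ac met 533 of 4127 kept peaks, or 12.9% (11.9 to 13.97), compared with 5.48% (5.33 to 5.63) of gained peaks. Kept peaks were also longer, with a median of 277 bp (272 to 282). Kept peaks met butyrate H3K9ac in 13.2% (12.2 to 14.2), against 4.88% of all gained peaks. Control Pol II met 21.6% of kept peaks (20.4 to 22.9), above the 12.7% of coincident regions. Butyrate Pol II met 9.76% of kept peaks (8.90 to 10.7), below the 12.6% of coincident regions.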

How the data were processed

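ChIP-seq was done in MDBK cells with 4 antibodies in 2 conditions, 1 library each, and 1 input library, which was not analysed here. The deposited lists give peak positions as start and end, in bp, with no score. According to the methods and processing notes, the authors trimmed reads (Trim Galore is listed), aligned them to UMD3.1.1 with BWA, kept unique alignments with few mismatches, and called peaks per library with MACS2 against the input. The number of peaks rises with depth, which the lists do not hold. Starts were read as counted from 0 and printed from 1.

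Peaks sharing at least 1 bp were called overlapping. Shares have 95% Wilson intervals, medians exact binomial intervals, and differences of shares Newcombe intervals. Mitochondrial peaks were left out. The span of a chromosome is the last peak end in any list. The overlap functions were tested on simulated data. The rule for regions was the 5 longest, the 5 sharing the most bases, the 5 longest with all other lists, the 5 richest windows of 1 Mb, and runs under 10 kb apart. The regions, comparisons and classes were chosen with earlier results of these data known. Gene positions of ARS-UCD2.0 were not used, because on 10 chromosomes the last peak lay over 1 Mb past the last gene of that table. Alternatives changed the overlap, the minimum length, the distance to control H3K9me3, joining of peaks and the chromosomes used. Python 3.11.15, numpy 2.4.6, pandas 2.3.3, scipy 1.17.1 and matplotlib 3.10.9 were used.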

Additional observations from a re-analysis of the deposited data

Results flagged for a closer look

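Peaks on the mitochondrial genome, which carries no histones, lie outside the choice of regions, and they were set apart because a signal appears there. Of 9 mitochondrial H3K9me3 peaks after butyrate, 8 met a butyrate H3K27ac peak, and all 9 met a control H3K9me3 peak. The floor for a count of 0 is 3, for counting error only. Their relation to the nuclear regions was not tested.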

How the results depend on the processing

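No paired analysis was possible because antibody and condition together name a single library, and none could be left out. Of 79 alternative values, 38 stayed within the interval of the value reported (for the number of regions, within 1.5 times) and 41 moved. The intervals are narrow, and the cause was not tested. Reading starts as counted from 1 was chosen after seeing the data, and it moved none of the 10 values. With H3K9me3 peaks of at least 500 bp there were 233 regions, 8.13% of gained peaks, with a median of 612 bp. Control H3K9ac then met 23.2%, butyrate H3K9ac 30.04%, control Pol II 21.5% and butyrate Pol II 13.7%, butyrate H3K9ac met 30.6% of partners, below the 34.5% of H3K27ac peaks without H3K9me3 rather than above it, and 2.58% lay on chromosome 18. With H3K27ac peaks of at least 500 bp there were 1786 regions (2.09%; median 223 bp), and the shares were 46.7% for control H3K27ac, 46.8% for control H3K9ac, 62.3% for butyrate H3K9ac, then for Pol II 14.9% in control and 20.2% after butyrate, and 76.3% for butyrate H3K9ac at partners. With H3K27ac over at least 50% of the peak, the values were 4.35%, 227 bp, 33.3%, 32.4%, 47.3%, 14.2% (butyrate Pol II) and 52.7% (partners). Without peaks at the shortest length, the median was 268 bp, control Pol II met 13.7%, and H3K9ac met 47.4% of partners. With no control H3K9me3 within 1 kb, the share of gained peaks was 5.26%. With peaks under 1 kb apart joined, it was 5.995%, the median was 238 bp, control H3K27ac met 31.9%, butyrate H3K9ac 46.4% and 66.3% of partners. Without chromosomes 5, 14 and 18, it was 5.27%, and the shares were 28.2%, 25.9%, 39.2%, 9.40%, 10.5% and 44.9% in the order given for H3K27ac peaks of at least 500 bp.

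The lists carry no heights, so depth and weak peaks limit every overlap, and a peak missing from a control list does not show that the mark was absent.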
